A study of Mus musculus with 9 samples.

Results

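The genes described here are those of the SR proteins (symbols starting with Srsf), of the heterogeneous nuclear ribonucleoproteins or hnRNPs (Hnrnp) and of the SF3a and SF3b complexes (Sf3), in sorted bone marrow stem and progenitor cells of mice with leukemia. They were picked by symbol, with no measured value in the rule: a probe set had to carry a single gene symbol starting with Srsf, Hnrnp or Sf3, and each gene was read from its brightest probe set, judged by mean log2 intensity. This gave 38 of the 18193 genes on the array, 10 Srsf, 19 Hnrnp and 9 Sf3 genes, on 121 probe sets. Of these, 37 entered the tests, and Srsf12, an SR-like splicing repressor, did not, since its probe set lay below the 40th percentile of its array on all 9 arrays. Hnrnpa3 and Srsf7 had no probe set with that symbol alone and are not analysed here.

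RNA came from CD45.1+ LKS+ cells sorted from bone marrow of C57BL/6 mice aged 8 weeks, and was hybridised to 9 Affymetrix Mouse Genome 430 2.0 arrays. The groups were leukemic mice at day 14 (n = 3), leukemic mice at day 7 (n = 3) and control mice (n = 3). LKS+ stands for the lineage-negative, Sca-1+, Kit+ gate that holds haematopoietic stem cells and early progenitors, and the labels describe the sorted cells as normal, not leukemic. The labels name neither the leukemia model nor what the control mice received, and they give the controls no day, so that leukemia and time since its start cannot be told apart. The replicates are called biological, but nothing says that each came from a separate animal, so p-values measure the spread between these samples. In sorted bulk RNA, a lower level from fewer cells of one kind and a lower level per cell cannot be told apart.

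Splicing removes introns in steps carried out by small nuclear ribonucleoproteins (snRNPs) on the nascent transcript. SR proteins bind exons through RNA recognition motifs and, through arginine- and serine-rich domains that kinases of the SRPK and CLK families phosphorylate, help U1 and U2 snRNPs to recognise splice sites; hnRNPs often oppose them by binding exonic or intronic silencers, and also act in RNA packaging, export and stability. SF3a and SF3b are the protein complexes of the U2 snRNP that hold it on the branch point, the base that attacks the start of the intron. Many SR and hnRNP genes limit their own level by splicing in exons that expose the transcript to nonsense-mediated decay, and in human myelodysplastic syndrome and leukemia SF3B1 and SRSF2 are recurrently mutated.

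At day 14, 7 of 9 Sf3 genes were lower than in control and 0 higher, where 34.1% of all tested genes were lower and 18.3% higher. Of 9 tested Srsf genes 2 were lower and 2 higher, and of 19 Hnrnp genes 6 were lower and 2 higher, an Hnrnp share lower that is near that of all genes. The difference between the families was not tested. The windows of 250 bases before the transcription start, from the RefSeq promoter table of build GRCm38.p6, are shown for 6 genes: Sf3a3, Sf3b3 and Sf3b6, which fell, Sf3b1, which did not, and Srsf5 and Hnrnpk, which rose. Capitals mark the core of the motif bound by ETS factors (CCGGAAG, or CTTCCGG on the other strand) and the CCAAT box (CCAAT, or ATTGG on the other strand), and each sequence runs 5′ to 3′ on the strand of the gene.
Sf3a3, chr4:124714611-124714860, plus strand: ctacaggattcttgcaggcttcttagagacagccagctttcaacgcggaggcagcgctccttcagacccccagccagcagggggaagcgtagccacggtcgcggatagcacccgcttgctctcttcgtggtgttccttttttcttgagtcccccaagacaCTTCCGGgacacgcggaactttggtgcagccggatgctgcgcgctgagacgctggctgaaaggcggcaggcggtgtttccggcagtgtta
Sf3b3, chr8:110846804-110847053, minus strand: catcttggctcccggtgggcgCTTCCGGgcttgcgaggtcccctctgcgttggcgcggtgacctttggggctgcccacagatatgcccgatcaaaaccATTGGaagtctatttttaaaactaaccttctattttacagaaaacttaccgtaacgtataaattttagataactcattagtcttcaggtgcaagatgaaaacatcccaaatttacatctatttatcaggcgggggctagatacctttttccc
Sf3b6, chr12:4817358-4817607, plus strand: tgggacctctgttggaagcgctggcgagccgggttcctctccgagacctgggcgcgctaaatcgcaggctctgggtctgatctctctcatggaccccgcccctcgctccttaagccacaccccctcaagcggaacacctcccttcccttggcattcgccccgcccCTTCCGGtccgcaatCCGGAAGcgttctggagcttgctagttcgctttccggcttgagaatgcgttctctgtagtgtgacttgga
Sf3b1, chr1:55027479-55027728, minus strand: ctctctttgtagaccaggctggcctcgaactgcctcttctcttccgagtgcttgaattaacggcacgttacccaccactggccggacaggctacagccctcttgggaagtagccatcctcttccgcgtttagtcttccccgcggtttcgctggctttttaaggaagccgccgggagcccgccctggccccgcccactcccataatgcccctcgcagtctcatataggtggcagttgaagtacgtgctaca
Srsf5, chr12:80945249-80945498, plus strand: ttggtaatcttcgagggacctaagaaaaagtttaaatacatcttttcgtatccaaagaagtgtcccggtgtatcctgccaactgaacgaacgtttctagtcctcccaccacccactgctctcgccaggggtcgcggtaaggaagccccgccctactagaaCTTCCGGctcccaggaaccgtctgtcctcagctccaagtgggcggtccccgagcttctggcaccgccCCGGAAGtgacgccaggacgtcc
Hnrnpk, chr13:58402118-58402367, minus strand: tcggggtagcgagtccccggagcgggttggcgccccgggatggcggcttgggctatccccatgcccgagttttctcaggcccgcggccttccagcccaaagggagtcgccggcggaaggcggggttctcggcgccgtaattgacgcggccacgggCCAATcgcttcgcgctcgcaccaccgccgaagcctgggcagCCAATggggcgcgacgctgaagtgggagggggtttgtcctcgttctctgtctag
A window was found for 34 of the 38 genes and none for Hnrnpll, Hnrnpul2, Sf3b4 and Sf3b5, which are only named. The ETS core stood in 6 of the 7 Sf3 genes with a window (85.7%), all but Sf3b1, in 3 of 10 Srsf genes (30.0%; Srsf4, Srsf5 and Srsf11) and in 2 of 17 Hnrnp genes (11.8%; Hnrnpd and Hnrnpf). It stood in 15.1% of the 10252 genes tested on the arrays that had a window and in 7.83% of all 27025 genes of the table. Split by call at day 14 against control, it stood in 7 of 13 lower members, 1 of 4 higher and 3 of 16 not called. Lower members without it, among them Hnrnpu and Srsf9, are not among the windows shown. A link between this core and the fall was not tested. The CCAAT box stood in 12 of 17 Hnrnp genes (70.6%), 3 of 10 Srsf genes and 2 of 7 Sf3 genes, against 4096 of the 10252 tested genes. The median GC content was 59.4% in the Sf3 windows, 64.8% in the Hnrnp windows and 68.4% in the Srsf windows, against 59.6% in those of tested genes. Of the other motifs searched on both strands, the GC box GGGCGG stood in 26 of 34 genes (76.5%, against 62.1% of tested genes), the E-box CACGTG in 2 (5.88%, against 9.76%) and the cAMP response element TGACGTCA in 0 (against 2.9%). The letters CCAAT and GGGCGG are short and common in such windows. A match describes the letters of the window and was not set against binding data, and the motifs were picked with the expression results known.

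All 9 measured markers of LKS+ cells (among them Kit, Flt3, Cd34 and Meis1) lay above the 40th percentile in every group, and their summed intensity was 10060 to 10840 at day 14, 9903 to 10440 at day 7 and 10840 to 11360 in control; Gata2 was called higher, and Cd48 and Procr lower, at day 14 than in control. Markers of other cells also moved. The sum over 8 megakaryocyte and platelet genes was 1684 to 1968 at day 14, 826 to 885 at day 7 and 664 to 765 in control, with 6 of 8 called higher at day 14 than in control. Over 7 macrophage and monocyte genes the sum was 2928 to 4104 at day 14, 2090 to 2726 at day 7 and 1906 to 2703 in control (5 called higher, 1 lower). The sum over 9 neutrophil genes was 6929 to 8393 at day 14, 5910 to 7178 at day 7 and 5231 to 6245 in control. Of these 9, 3 were called higher and 2 lower at day 14 than in control. The B cell sum was 339 to 438 at day 14, 304 to 371 at day 7 and 256 to 269 in control. Of the 6 tested B cell genes, 4 were called higher and 1 lower at day 14 than in control. The T and NK cell sum was 660 to 749 at day 14, 930 to 950 at day 7 and 774 to 889 in control. That sum is mostly Nkg7, which was called lower at day 14 than in control (-0.49), while 3 of the 5 tested genes of the list, Cd3e, Cd8a and Bcl11b, were called higher. The erythroid sum was 147 to 222 at day 14, 261 to 295 at day 7 and 188 to 923 in control, with the globin gene Hba-a1, Alas2 and Slc4a1 below the 40th percentile on every array. No marker was at 0. The part of such cells in the differences below was not tested.

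Splicing factor genes were among the brightest on the arrays. In control cells the median member lay at percentile 96.2 of the tested genes, the dimmest tested member at percentile 71.6, and 26 of the 37 above the 90th, each by its brightest probe set. The further probe sets and some genes of the other lists were dimmer. Replicates lay close together: the median SD of log2 intensity within a group was 0.0642 at day 14, 0.0549 at day 7 and 0.075 in control over the members, and 0.0975 at day 14, 0.0723 at day 7 and 0.0927 in control over all tested genes. The first principal component of the 37 members held 75.7% of their variance and put the day 14 arrays at 0.88 to 1.19 and the other 6 arrays at -0.77 to -0.11. It was not computed over all genes, of which 52.4% were called at day 14 against control. The separation is therefore not shown to be particular to the members.

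At day 7 no member passed the test. With limma and Benjamini-Hochberg adjustment over 12652 genes, 0 of 37 members were called at an adjusted p under 0.05, against 3.34% of all tested genes (423; 2.21% higher and 1.13% lower), and 6 members had an unadjusted p under 0.05, against 19.8% of all genes. The lowest adjusted p was 0.0562, for Sf3b5, at a log2 change of 0.31 ± 0.08 (SE). Medians were near that of all genes (0.01), at -0.04 for Srsf, -0.04 for Hnrnp and 0.10 for Sf3. Other settings called 0 to 4 members.

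At day 14, 19 of 37 members were called against control, 4 higher and 15 lower. Of all tested genes 52.4% were called (18.3% higher and 34.1% lower), so the share of members called lies near the background and does not set them apart as a whole. Against day 7, 18 of 37 were called, 6 higher and 12 lower, with 51% of all tested genes called (17.4% higher and 33.6% lower). Both comparisons use the same day 14 arrays. The split between directions rests in part on how arrays are scaled. The 75th percentile of intensity was 115 to 119 on the day 14 arrays and 127 to 130 on the other 6. With every array set to the same 75th percentile, the median change of all genes for day 14 against control moved to 0.06 from -0.06 as deposited, and the members split into 9 higher and 9 lower (all genes 3953 and 2929, against 2314 and 4312 as deposited); after quantile normalization the members stayed at 4 and 15 (all genes 2788 and 3390). For day 14 against day 7 the same 75th percentile gave 14 higher and 10 lower members (all genes 4029 and 2942) and quantile normalization 5 and 10 (2698 and 3434).

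**Figure D1:**
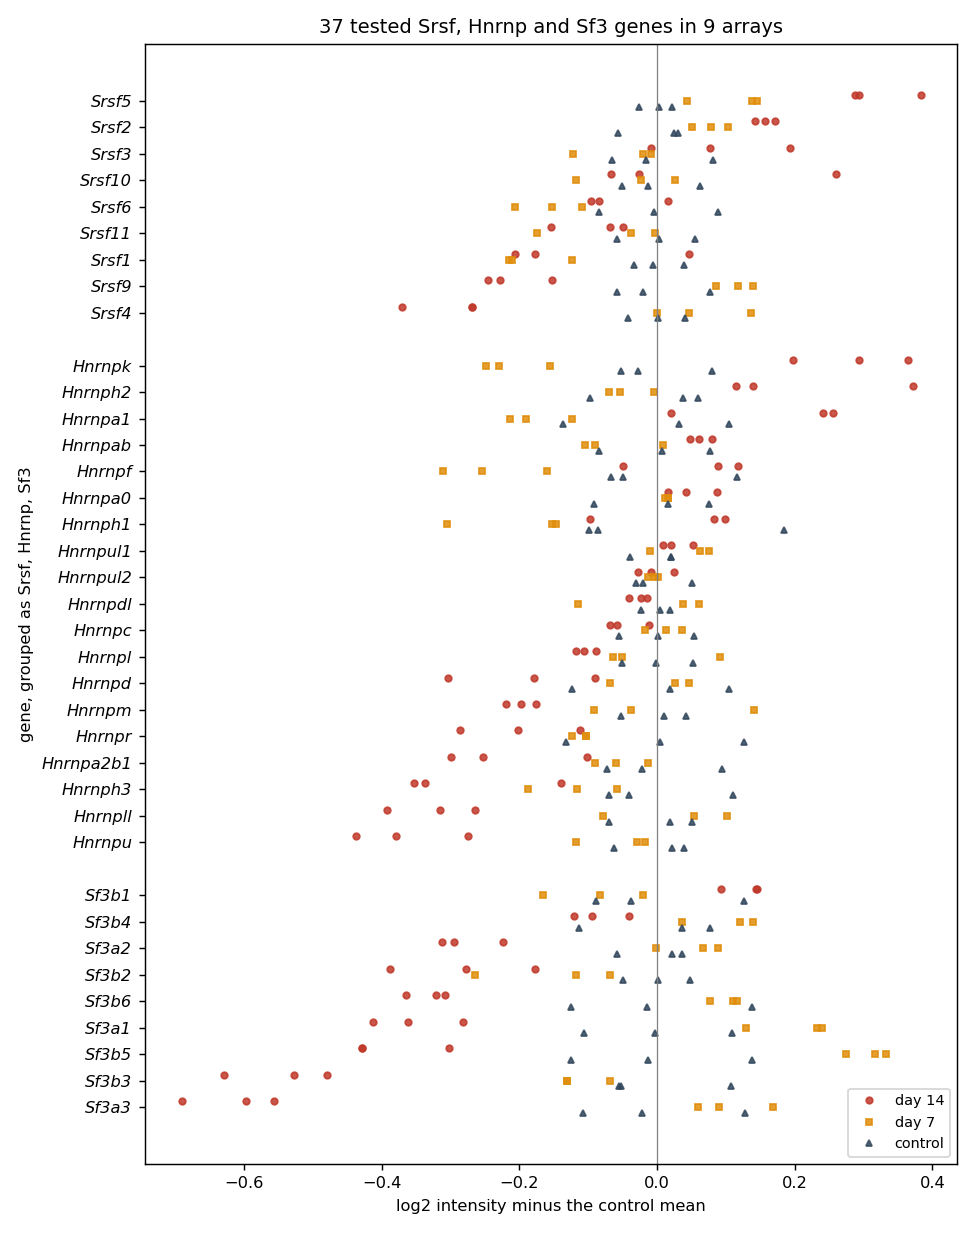
Log2 intensity of the 37 tested genes on each of the 9 arrays, minus the mean of the 3 control arrays, with genes sorted within each family by their change at day 14. Circles are day 14, squares day 7 and triangles control; the day 14 points of Sf3a3, Sf3b3, Sf3b5 and Sf3a1 lie left of every control point, and those of Srsf5 and Hnrnpk lie to the right of every control point.

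The Sf3 genes fell at day 14. Of the 9, 7 were lower than in control and 0 higher, with a median log2 change of -0.33 against -0.06 over all tested genes (-0.21 against 0.06 with the same 75th percentile, and -0.23 against -0.06 with the mean of probe sets); the count was 7 with quantile normalization and with each array left out in turn, 6 with the same 75th percentile, where Sf3b1 was then called higher, and 5, again with Sf3b1 higher, with probe sets averaged per gene. The SF3a complex has 3 subunits, and all 3 fell. Sf3a3 had intensities of 339, 373 and 362 at day 14, 583, 570 and 615 at day 7, and 540, 599 and 509 in control. Every day 14 array lay below every other array, and the change was -0.61 ± 0.07 against control (adjusted p = 0.00012) and -0.72 ± 0.07 against day 7 (adjusted p = 4.47e-05). Its second probe set moved the same way, by -0.82 ± 0.14 against control.

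Sf3a1, the largest SF3a subunit, read 259, 283 and 268 at day 14, 407, 404 and 377 at day 7, and 344, 372 and 320 in control. The groups were fully separate, with day 14 lowest and day 7 highest: the change at day 14 was -0.35 ± 0.07 against control (adjusted p = 0.00249) and -0.55 ± 0.07 against day 7, while the day 7 difference from control, 0.20 ± 0.07, did not pass (adjusted p = 0.161). Sf3a2 was brighter, with means of 1964 at day 14, 2465 at day 7 and 2379 in control, and fell by 0.28 ± 0.06 against control (adjusted p = 0.00325).

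Of the 6 measured SF3b genes, 4 fell. Sf3b3, a large scaffold protein of the complex, had intensities of 538, 577 and 597 at day 14, 793, 759 and 759 at day 7, and 800, 895 and 802 in control. Day 14 stood below both other groups without overlap, at -0.55 ± 0.07 against control (adjusted p = 0.00015) and -0.43 ± 0.07 against day 7 (adjusted p = 0.000479). Sf3b5, the smallest subunit, read 910, 909 and 992 at day 14, 1524, 1480 and 1541 at day 7, and 1213, 1346 and 1122 in control. These groups were also fully separate, and the change was -0.39 ± 0.08 against control (adjusted p = 0.00193) and -0.69 ± 0.08 against day 7. Its other tested probe set gave -0.34 ± 0.09 against control and -0.68 against day 7. Sf3b6, whose protein touches the branch point base, fell by 0.33 ± 0.07 against control (adjusted p = 0.0033). Sf3b2 fell by 0.28 ± 0.08 (adjusted p = 0.0109). Sf3b2 lost its call when the arrays had the same 75th percentile, and Sf3a2 and Sf3b6 lost theirs with the mean of the probe sets. Under that mean Sf3b3 changed by -0.23 against control, still a call, and by -0.09 against day 7, no longer one (adjusted p = 0.223).

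Sf3b1, the subunit whose ring of repeats encloses the branch point helix, was not called. Its intensities were 2245, 2243 and 2165 at day 14, 2002, 1917 and 1810 at day 7, and 1978, 1909 and 2215 in control. Day 14 overlapped control through a single control array, and the change of 0.13 ± 0.07 did not pass (adjusted p = 0.156), while against day 7 it was higher by 0.22 ± 0.07 (adjusted p = 0.027). Leaving out control replicate 3 made the change from control a call, and leaving out day 14 replicate 1 or 2, or day 7 replicate 2 or 3, ended the call against day 7. Of its further probe sets, 1418562_at rose by 0.36 ± 0.07 and 1440818_s_at by 0.42 ± 0.10 at day 14 against control, when every probe set was tested on its own. Sf3b4 changed by -0.08 ± 0.07 against control (adjusted p = 0.312) and by -0.18 ± 0.07 against day 7 (adjusted p = 0.0432). The call against day 7 held in 8 of 21 alternatives, was lost without any 1 of the day 14 or day 7 arrays, and turned to 0.05 with the mean of probe sets. Phf5a encodes a further SF3b subunit under another name, and it is no member by symbol: its mean was 521 at day 14, 839 at day 7 and 696 in control, a change of -0.42 ± 0.07 against control (adjusted p = 0.000857).

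**Figure D2:**
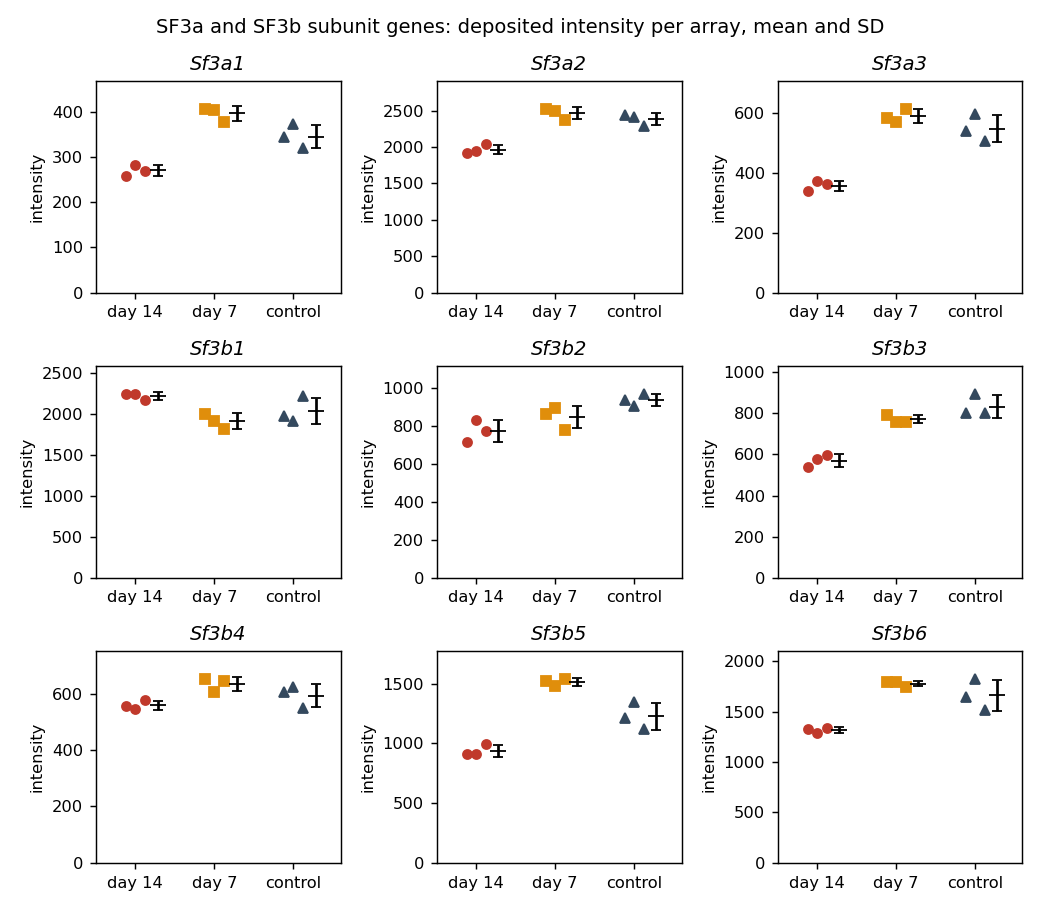
Deposited intensity of the 9 Sf3 genes on each array by group, with the mean and SD (n = 3) to the right of the points and axes that start at 0. For Sf3a1, Sf3a2, Sf3a3, Sf3b3, Sf3b5 and Sf3b6 the 3 day 14 arrays lie below all other arrays; for Sf3b1 they lie above the day 7 arrays.

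Among the Srsf genes, 2 rose, 2 fell and 5 were not called at day 14 against control, with a median change of -0.05 as deposited and 0.07 with the same 75th percentile. Srsf5, an SR protein first described in rat as induced in regenerating liver, rose: it read 5852, 5478 and 5498 at day 14, 4624, 4962 and 4940 at day 7, and 4556, 4410 and 4499 in control. The order of the groups was day 14, day 7, control with no overlap, and the changes were 0.32 ± 0.06 against control (adjusted p = 0.00136) and 0.21 ± 0.06 against day 7 (adjusted p = 0.0126). Srsf2, known as SC35, had 2123, 2081 and 2102 at day 14, 2024, 1990 and 1953 at day 7, and 1813, 1925 and 1917 in control. The step of 0.16 ± 0.06 against control was small (adjusted p = 0.035) and lost its call in 9 of 21 alternatives, among them leaving out any 1 of the day 14 arrays.

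Srsf4 fell, with 1024, 955 and 1024 at day 14, 1356, 1233 and 1274 at day 7, and 1198, 1235 and 1269 in control. Day 14 lay below both groups, at -0.30 ± 0.06 against control (adjusted p = 0.00269) and -0.36 ± 0.06 against day 7. Srsf9 fell to 823, 813 and 867 at day 14, against 1024, 1062 and 1046 at day 7 and 951, 1017 and 927 in control. Its change was -0.21 ± 0.06 against control (adjusted p = 0.0153), not a call with the same 75th percentile or without control replicate 2, and -0.32 ± 0.06 against day 7 (adjusted p = 0.00139). Srsf6, with -0.05 ± 0.07 against control, and Srsf11, with -0.09 ± 0.07, were not called in either comparison of day 14. Srsf6 was called higher than at day 7 with the same 75th percentile and with the mean of probe sets. Some probe sets of both genes disagreed with the brightest against day 7. By limma, the ratio to the brightest changed by 0.47 ± 0.11 for 1430077_at of Srsf11 (adjusted p = 0.0129). That of 1447898_s_at of Srsf6 changed by 0.28 ± 0.07 (adjusted p = 0.0165). Their other ratios were not called.

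Srsf1, a founding member of the SR family, was not called on the probe set that stands for it but was lower on its others. The brightest probe set, 1428099_a_at, read 1624, 1934 and 1657 at day 14, 1619, 1720 and 1614 at day 7, and 1866, 1925 and 1830 in control, a change of -0.11 ± 0.08 (adjusted p = 0.23). All 5 other tested probe sets were called lower, between -0.41 and -0.80. For example 1428100_at had 334, 393 and 384 at day 14, 610, 585 and 580 at day 7, and 612, 734 and 598 in control. The ratio of each of the 5 to the brightest probe set, in which a factor common to an array cancels, was lower at day 14 than in control, at -0.69 ± 0.09 for 1428100_at (limma over 10609 such ratios, adjusted p = 0.000772) and -0.30 ± 0.07 for 1434972_x_at (adjusted p = 0.0128). Quantile normalization, which can move bright and dim probe sets unequally, ended the call of 1 of the 5 ratios, that of 1452430_s_at.

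Srsf10, which represses splicing when it is dephosphorylated, showed the same split. Its brightest probe set, 1423982_at, changed by 0.06 ± 0.09 against control (adjusted p = 0.62). The other 3 were called lower, at -0.48 ± 0.07 for 1418526_at, -0.47 ± 0.11 for 1418527_a_at and -0.82 ± 0.11 for 1449121_at. The last had 141, 163 and 171 at day 14, 289, 282 and 282 at day 7, and 266, 329 and 246 in control, with day 14 below all other arrays. Its ratio to the brightest probe set fell by 0.87 ± 0.11 (adjusted p = 0.000649).

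In Srsf3, the smallest SR protein, probe sets were called in opposite directions. The brightest, 1416150_a_at, had 2680, 2905 and 2527 at day 14, 2506, 2527 and 2335 at day 7, and 2428, 2689 and 2513 in control, and was not called (0.09 ± 0.07, adjusted p = 0.329). Probe set 1438215_at rose: it read 659, 704 and 652 at day 14, 437, 398 and 464 at day 7, and 355, 384 and 471 in control. Its change was 0.74 ± 0.11 against control, and its ratio to the brightest probe set changed by 0.66 ± 0.12 (adjusted p = 0.00401). Probe set 1416151_at fell, with intensities of 309, 402 and 340 at day 14, 503, 531 and 480 at day 7, and 485, 584 and 471 in control. Its change was -0.55 ± 0.11 against control, and that of its ratio -0.64 ± 0.09 (adjusted p = 0.00116). Srsf3 was the only member with probe sets called in both directions in this comparison. The remaining 3 tested probe sets of the gene lay between -0.11 and 0.07.

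**Figure D3:**
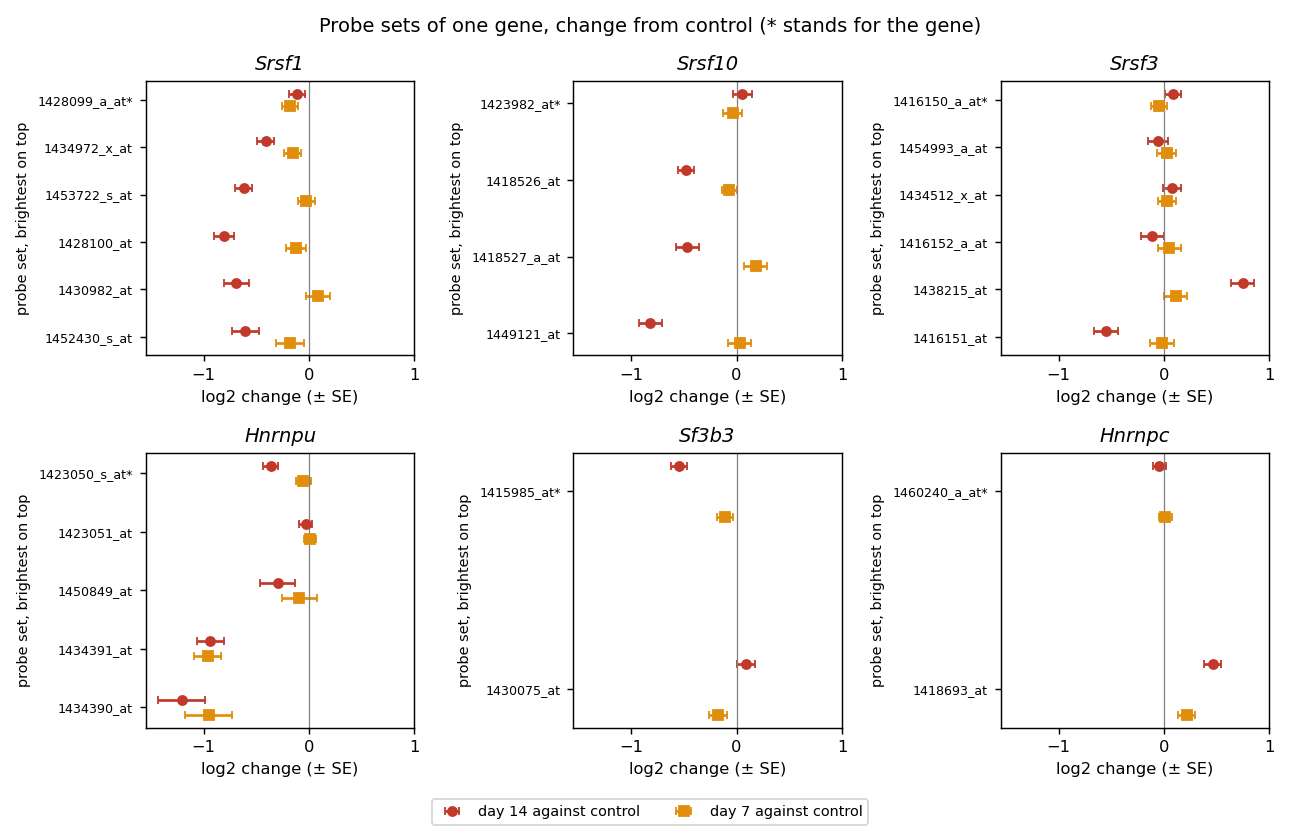
Log2 change from control of every tested probe set of 6 genes, with the brightest probe set on top (marked with an asterisk), circles for day 14, squares for day 7 and bars of 1 SE. In Srsf1 and Srsf10 the dimmer probe sets lie left of the brightest at day 14, Srsf3 has 1 probe set at 0.74 and 1 at -0.55, and in Hnrnpu the dimmest pair lies near -1 on both days.

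Over all members, 114 of the 121 probe sets were tested on their own, and 11 were called higher and 37 lower at day 14 against control, where 17.5% and 29.4% of all 23263 probe sets were called. By family the counts were 3 higher and 11 lower of 31 for Srsf, 5 and 12 of 56 for Hnrnp, and 3 and 14 of 27 for Sf3. Ratios to the brightest probe set changed in 21 of 77 pairs (27.3%), in 12 of 29 genes, against 23.6% of all pairs; for day 14 against day 7 they changed in 29 pairs (37.7%), in 19 genes, against 24.6%. For day 14 against day 7 single probe sets were called higher in 21 cases and lower in 30, against 16.4% and 28.7% of all. For day 7 against control 1 pair was called, against 1.31% of all pairs, and of single probe sets 0 were called higher and 2 lower, both of Hnrnpu, against 2.21% and 1.31% of all probe sets. Unequal change within a gene was thus about as common among the members as on the whole array in the first comparison. The array names a probe set by suffix: _a_at reads several transcripts of a gene, _s_at can read more than 1 gene, and _x_at holds probes that also resemble other sequences. Where in each transcript a probe set lies was not analysed here, and RNA was amplified over 2 cycles, which favours sequence near the poly(A) tail; the part of either in these ratios was not tested.

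Among the Hnrnp genes, 2 rose, 6 fell and 11 were not called at day 14 against control, with a median change of -0.03 as deposited and 0.10 with the same 75th percentile. Only 3 were called lower when any 1 of these arrays was left out: day 14 replicate 1, day 14 replicate 3 or control replicate 2. Hnrnpk, a protein with KH domains that binds C-rich RNA and DNA, rose: its intensities were 4114, 4322 and 3850 at day 14, 3013, 2825 and 2863 at day 7, and 3292, 3549 and 3238 in control. Day 14 was highest and day 7 lowest without overlap, with changes of 0.29 ± 0.07 against control (adjusted p = 0.00536) and 0.50 ± 0.07 against day 7 (adjusted p = 0.00019). Against control, probe sets 1423684_at (0.38 ± 0.07) and 1454692_x_at (0.36 ± 0.12) rose too, and 1448176_a_at was not called (0.06 ± 0.07, adjusted p = 0.491). Against day 7, the ratio of 1448176_a_at to the brightest probe set changed by -0.42 ± 0.08 (limma, adjusted p = 0.0046). The rise against day 7 was thus smaller on that probe set. The ratios of 1423684_at and 1454692_x_at were not called. Hnrnph2, which binds runs of G, had 881, 1053 and 896 at day 14, 811, 783 and 775 at day 7, and 835, 847 and 760 in control. The change of 0.21 ± 0.08 lay just inside the threshold (adjusted p = 0.0484) and lost its call in 10 of 21 alternatives, among them without any 1 of the control arrays.

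Hnrnpa1, which silences exons and is among the most studied hnRNPs, read 2330, 2308 and 1979 at day 14, 1710, 1793 and 1684 at day 7, and 1996, 1777 and 2098 in control. Day 14 and control overlapped and did not differ by the test (0.17 ± 0.08, adjusted p = 0.111), while day 14 was higher than day 7 by 0.35 ± 0.08 (adjusted p = 0.00624). The change from control became a call with the same 75th percentile, with the mean of probe sets and without day 14 replicate 3. Hnrnpf, another G-run binding protein, was likewise called against day 7 (0.29 ± 0.08, adjusted p = 0.00865) and not against control (0.05 ± 0.08, adjusted p = 0.586). Its probe sets disagreed against day 7. The ratio of 1423382_a_at to the brightest changed by -0.315 ± 0.08 (adjusted p = 0.0147). That of 1450963_at changed by -0.29 ± 0.09 (adjusted p = 0.0441), called in 8 of 18 alternatives. The ratio of 1437099_x_at was not called.

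Hnrnpu, also known as scaffold attachment factor A, fell. It had 1695, 1764 and 1896 at day 14, 2266, 2248 and 2114 at day 7, and 2330, 2358 and 2197 in control. Day 14 lay below all other arrays, at -0.36 ± 0.07 against control (adjusted p = 0.00119) and -0.31 ± 0.07 against day 7 (adjusted p = 0.00287). With the mean of probe sets the change against day 7 was -0.16 and no call (adjusted p = 0.188), and the change at day 7 against control was -0.41 and a call (adjusted p = 0.0402). Its probe sets disagreed on both days. Probe set 1423051_at was not called (-0.03 ± 0.06 at day 14, adjusted p = 0.673). Probe set 1434391_at read 220, 250 and 198 at day 14, 239, 231 and 188 at day 7, and 410, 376 and 495 in control, with both leukemic groups below every control array. Its changes were -0.94 ± 0.13 at day 14 and -0.96 ± 0.13 at day 7, and the change of its ratio to the brightest probe set at day 7 was -0.91 ± 0.15 (adjusted p = 0.0283), the only ratio of a member called at that time. Leaving out control replicate 3, or any 1 of the day 7 arrays, ended this call, as did other settings. Probe set 1434390_at went the same way, with -1.21 ± 0.22 at day 14 and -0.95 ± 0.22 at day 7.

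Hnrnpll, which in T cells drives exclusion of exons of the CD45 gene Ptprc, had 495, 453 and 478 at day 14, 639, 618 and 564 at day 7, and 567, 603 and 617 in control. Its day 14 arrays lay below the rest, with a change of -0.32 ± 0.07 (adjusted p = 0.00319); its second probe set was not called (-0.13 ± 0.08, adjusted p = 0.233). Hnrnph3 read 554, 483 and 477 at day 14, 563, 586 and 536 at day 7, and 581, 593 and 658 in control. It fell by 0.28 ± 0.08 (adjusted p = 0.0143) with day 14 and day 7 overlapping, and lost its call with the same 75th percentile and without control replicate 3. Hnrnpa2b1, a partner of Hnrnpa1 in hnRNP particles, had 2822, 3136 and 2733 at day 14, 3334, 3161 and 3226 at day 7, and 3313, 3590 and 3199 in control. Its change was -0.22 ± 0.07 (adjusted p = 0.0274), called in 14 of 21 alternatives. Probe set 1433829_a_at disagreed with the brightest one: its ratio changed by 0.72 ± 0.14 against day 7 (adjusted p = 0.00564). Against control that ratio changed by 0.40 ± 0.14 and was not called (adjusted p = 0.0621). The ratios of 1433830_at and 1434047_x_at were not called in either comparison of day 14.

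The other Hnrnp genes changed less. Hnrnpm fell by 0.20 ± 0.07 (adjusted p = 0.0372) and Hnrnpr by 0.20 ± 0.08 (adjusted p = 0.0486), with calls kept in 11 and 10 of 21 alternatives. Probe sets of Hnrnpr disagreed in both directions. Against control the ratio of 1429232_at to the brightest changed by -0.44 ± 0.14 (limma, adjusted p = 0.0384), called in 9 of 17 alternatives. The ratio of 1437526_x_at changed by 0.28 ± 0.12 against control, not a call. Against day 7 it changed by 0.50 ± 0.12 (adjusted p = 0.0129). The ratios of 1438807_at and 1452030_a_at were not called in either comparison of day 14. Hnrnpd, an mRNA decay factor also called AUF1, had the lowest adjusted p among the Hnrnp genes not called (0.067, change -0.19 ± 0.08). It stayed uncalled in 13 of 21 alternatives and was called lower in the others, among them quantile normalization and the mean of probe sets. Against day 7 it stayed uncalled in 14 of 21. The remaining 9, Hnrnpa0, Hnrnpab, Hnrnpc, Hnrnpdl, Hnrnph1, Hnrnpl, Hnrnpul1, Hnrnpul2 and Hnrnpf, lay between -0.10 and 0.06. Hnrnpul2 was the flattest of them, with means of 516 at day 14, 515 at day 7 and 517 in control. Some of these genes held a probe set that was called: 1418693_at of Hnrnpc, which as a protein measures transcript length and binds U tracts, read 434, 492 and 470 at day 14, 393, 393 and 389 at day 7, and 362, 347 and 306 in control. It rose by 0.46 ± 0.08 while the brightest probe set of Hnrnpc changed by -0.05 ± 0.06, and their ratio changed by 0.51 ± 0.10 (adjusted p = 0.00481). In Hnrnpab 1431349_at changed by -0.53 and in Hnrnpd 1457568_at by -0.65, with ratios changed by -0.59 ± 0.13 and -0.46 ± 0.11 (adjusted p = 0.0113 and 0.0173), the second not a call after quantile normalization, without day 14 replicate 1 or without control replicate 2.

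Probe sets of Sf3 genes also disagreed. In Sf3b3, 1430075_at had 251, 244 and 241 at day 14, 202, 218 and 193 at day 7, and 218, 216 and 261 in control. It was not called against control (0.09 ± 0.09) where the brightest probe set fell, and the ratio changed by 0.63 ± 0.11 (adjusted p = 0.00388). In Sf3b4, whose brightest probe set was not called, 1436784_x_at rose by 0.28 ± 0.08 and the ratio changed by 0.36 ± 0.07 (adjusted p = 0.00412). Ratios also changed for 1436681_x_at of Sf3b6 (0.35 ± 0.10, adjusted p = 0.0321) and 1450576_a_at of Sf3a2 (0.27 ± 0.09, adjusted p = 0.0457), in both toward less of a fall than on the brightest probe set. The last of these lost its call in 10 of 17 alternatives and the one before it in 6 of 18.

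The surroundings of the members were described by 9 lists of other splicing genes, made from general knowledge of the spliceosome with earlier results of these data known. Of all tested genes, 34.1% fell and 18.3% rose at day 14 against control. Of 20 tested proteins of the U4/U6.U5 tri-snRNP, 14 fell and 0 rose (median -0.29; -0.17 with the same 75th percentile, where 10 fell and 0 rose). Lsm3, a subunit of the ring on U6 RNA, had a mean of 927 at day 14, 1664 at day 7 and 1461 in control (-0.66 ± 0.07, adjusted p = 4.13e-05), and Lsm2 had 39.2 at day 14, 86.7 at day 7 and 63.1 in control (-0.67 ± 0.16, adjusted p = 0.00555). Of 7 tested U1 and Sm core genes 4 fell and 0 rose, with Snrpd3 at -0.43 ± 0.09 and Snrnp70 at -0.40 ± 0.06, both calls lost with the mean of probe sets; with the same 75th percentile 2 fell and 0 rose. Of 13 tested U2 partners 5 fell, a share near that of all genes, and 0 rose, among them Phf5a and Ddx46, the helicase that readies U2 for the branch point (-0.43 ± 0.07); with the same 75th percentile 3 fell and 1 rose.

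The lists of regulators went both ways. Of 9 tested SR protein kinases 3 rose and 1 fell. Clk1, which phosphorylates SR proteins in the nucleus, had means of 2777 at day 14, 1627 at day 7 and 1689 in control (0.73 ± 0.10, adjusted p = 0.000258), Clk3 rose by 0.55 ± 0.09, and Clk4, named after its values were seen, by 0.47. Srpk1, which does so in the cytoplasm, fell by 0.25 ± 0.07 (adjusted p = 0.00849), a call lost with the same 75th percentile, whereas the 3 Clk calls held in all 21 alternatives. Of 19 tested SR-related proteins 5 rose and 6 fell, led by Rbm39 (0.51 ± 0.09) and Tra2a (0.41 ± 0.13) and by Luc7l3 (-0.97 ± 0.09) and Scaf4 (-0.49 ± 0.08). The call of Tra2a was lost in 5 of 21 alternatives, among them without day 14 replicate 1 or 2 or control replicate 1. Luc7l3, a partner of U1, had means of 785 at day 14, 1251 at day 7 and 1540 in control.

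Of 24 tested other splicing regulators 7 rose and 6 fell. The helicase gene Ddx5 rose by 0.43 ± 0.07 and Celf2 by 0.39 ± 0.07, and Tardbp, which encodes TDP-43, fell by 0.96 ± 0.09, with means of 381 at day 14, 603 at day 7 and 738 in control; Taf15 fell by 0.82 ± 0.15. With the mean of its probe sets Celf2 changed by -0.01 and was not called. Of 15 tested genes of the PRP19 complex and the step helicases 3 rose and 8 fell, with Syf2 (0.36 ± 0.06) and Slu7 (0.34 ± 0.07) highest and Crnkl1 (-0.43 ± 0.09) and Aqr (-0.43 ± 0.08, not a call with the mean of probe sets) lowest. Of 3 tested exon junction complex genes 1 fell, Casc3 (-0.22 ± 0.06, not a call with either other scaling or without day 14 replicate 2), and of 7 tested nonsense-mediated decay factors 0 were called, at log2 changes of -0.16 to 0.14; with the same 75th percentile 4 of these 7 were called higher. At day 7 against control 2 genes of all 9 lists were called, Snrpc (0.30 ± 0.06, adjusted p = 0.0358) and Ddx17 (-0.44 ± 0.06, adjusted p = 0.00768), named here after their values were seen.

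**Figure D4:**
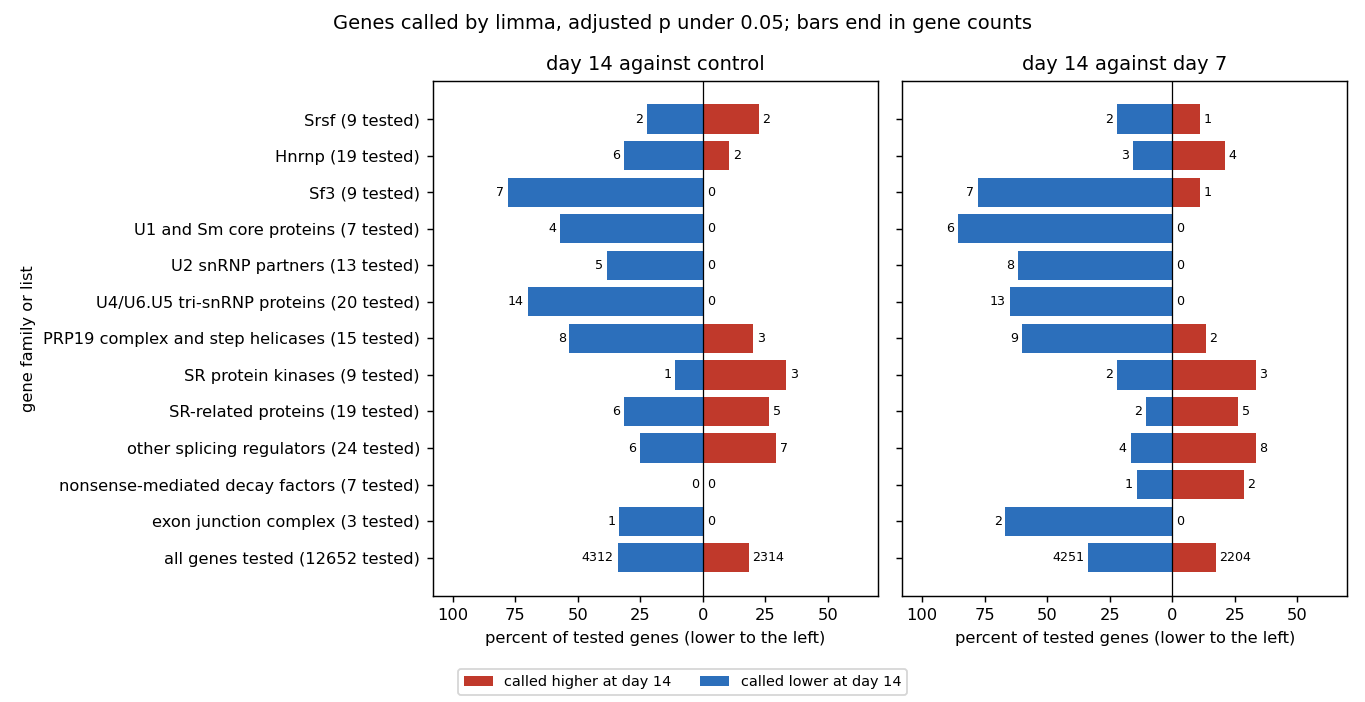
Percent of tested genes called higher (red, to the right) and lower (blue, to the left) at day 14 against control and against day 7, for the member families, the other splicing lists and all tested genes, with gene counts at the bar ends. Sf3, U1 and Sm, U2 partner and tri-snRNP genes have 0 called higher against control as deposited (1 Sf3 gene and 1 U2 partner are called higher with the same 75th percentile), while SR kinases, SR-related proteins and other regulators have genes on both sides.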

How the data were processed

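RNA of sorted cells was measured on 9 arrays, 3 per group. The values are the authors' deposited intensities, linear, 1 per probe set and array. Amplification over 2 cycles and normalization with Microarray Analysis Software v5.0 are stated in the series' design text; 51.6% of probe sets hold equal values in 2 or more arrays, which a summary across arrays can give, so the scaling was varied. Members and gene lists were chosen with earlier results of these data known. Of 45037 probe sets, 34945 had 1 symbol in the platform annotation. Before log2, values under 5.81, the table's 20th percentile, were set to it. Tests covered genes whose probe set exceeded the 40th percentile of its array (14.1 to 15.2) in at least 3 arrays. Groups were compared with limma 3.58.1 in R 4.3.3, in 1 model over all 9 arrays with no covariates, two-sided, with Benjamini-Hochberg adjustment and calls under 0.05; errors of changes are SE on the log2 scale. Ratios of a gene's probe sets to its brightest were tested likewise, a test added after seeing the data. The steps were tested on simulated data. The number of arrays limits the precision.

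Named with all array values were up to 4 called members per family and direction with the largest change at day 14 against control, and Srsf1, Srsf2, Srsf3, Hnrnpa1, Hnrnpk and Sf3b1; of the other lists, up to 2 per direction. Alternatives were quantile normalization, the same 75th percentile, an offset of 32 in place of the floor, no floor, a 60th percentile filter or none, averaged probe sets, probe sets tested singly, a replicate block, fits on only 2 groups, array weights, a trended robust prior, and each array left out. Samples of the same number did not deviate together (correlations of -0.193 to 0.12), so the numbers do not pair them.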

Additional observations from a re-analysis of the deposited data

Results flagged for a closer look

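The change from control differed between day 14 and day 7, by limma on day 14 against day 7 (adjusted p under 0.05), for 18 of 37 members. Of all tested genes 51% were called in that comparison, so the member share lies near the background. In log2 units, the change at day 14 minus that at day 7 was above 0 for Hnrnpa1 (0.35), Hnrnpf (0.29), Hnrnph2 (0.25), Hnrnpk (0.50), Sf3b1 (0.22) and Srsf5 (0.21). It was below 0 for Hnrnpll (-0.35), Hnrnpm (-0.20), Hnrnpu (-0.31), Sf3a1 (-0.55), Sf3a2 (-0.33), Sf3a3 (-0.72), Sf3b3 (-0.43), Sf3b4 (-0.18), Sf3b5 (-0.69), Sf3b6 (-0.43), Srsf4 (-0.36) and Srsf9 (-0.32). Of the 22 genes named from the other splicing lists, 21 differed too, where 51% of all tested genes were called. These 22 were picked by their change at day 14 against control, on the same day 14 arrays. The count of 21 was thus largely set by that choice. The difference was above 0 for Syf2 (0.36), Slu7 (0.28), Clk1 (0.77), Clk3 (0.45), Rbm39 (0.69), Tra2a (0.52), Ddx5 (0.46) and Celf2 (0.45), and below 0 for Crnkl1 (-0.54), Aqr (-0.39), Srpk1 (-0.28), Luc7l3 (-0.67), Scaf4 (-0.28), Snrpd3 (-0.65), Snrnp70 (-0.29), Ddx46 (-0.30), Phf5a (-0.69), Lsm2 (-1.16), Lsm3 (-0.84), Casc3 (-0.17) and Tardbp (-0.67).

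Of the 21 probe-set ratios that changed at day 14 against control, 18 also differed between the days, given as above in log2 units. These 21 were picked by a change on the same day 14 arrays, so the count of 18 is no separate evidence. Of all pairs on the array, 24.6% were called for day 14 against day 7. In Hnrnpab the ratio of 1431349_at changed by -0.68. In Hnrnpc the ratio of 1418693_at changed by 0.30. In Hnrnpd the ratio of 1457568_at changed by -0.40. In Hnrnpr the ratio of 1429232_at changed by -0.48. In Hnrnpu the ratio of 1423051_at changed by 0.27. In Sf3b3 the ratio of 1430075_at changed by 0.70. In Sf3b4 the ratio of 1436784_x_at changed by 0.46. In Sf3b6 the ratio of 1436681_x_at changed by 0.41. In Srsf1 ratios changed for 1428100_at (-0.75), 1430982_at (-0.84), 1434972_x_at (-0.33), 1452430_s_at (-0.49) and 1453722_s_at (-0.66). In Srsf10 ratios changed for 1418526_at (-0.51), 1418527_a_at (-0.74) and 1449121_at (-0.94). In Srsf3 ratios changed for 1416151_at (-0.67) and 1438215_at (0.50). Groups of 3 arrays were not searched for single outlying samples.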

How the results depend on the processing

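For day 14 against control, 9 of 19 member calls held in all 21 alternatives (Hnrnpk, Hnrnpll, Hnrnpu, Sf3a1, Sf3a3, Sf3b3, Sf3b5, Srsf4 and Srsf5), and for day 14 against day 7, 11 of 18 held. Member counts were 14 to 21 for day 14 against control and 14 to 24 for day 14 against day 7, and the counts over the other splicing lists were 54 to 68 (63 as reported) and 55 to 72 (67 as reported). As reported, 52.4% and 51% of all tested genes were called in these comparisons. The background moved with the settings too. Before adjustment, 44.6% to 63.4% of all tested genes had a p under 0.05 by limma for day 14 against control. For day 14 against day 7 the range was 43.6% to 63.1%. The counts for day 7 depend most on the settings. Members called, 0 as reported, were 1 with the offset of 32, the stricter filter or the mean of probe sets, 3 with the trended robust prior, 4 with array weights, and 0 to 1 with an array left out (1 without control replicate 2). All genes called, 423 as reported, were 703 with the offset, 59 with no filter, 674 with the trended robust prior, 2181 with array weights, and 79 to 555 with an array left out (187 without control replicate 1, 79 without control replicate 3, 137, 84 and 122 without day 7 replicates 1, 2 and 3). The other splicing genes called, 2 as reported, were 1 with the same 75th percentile, no filter or only the 2 groups compared, 8 with the offset, 5 with the stricter filter, 10 with the trended robust prior, 21 with array weights, and 1 to 6 with an array left out (6 without control replicate 2, 1 without control replicate 1 or 3, any day 7 array, or day 14 replicate 2 or 3). Probe-set ratios called at day 7, 1 as reported, were 3 with the offset, the stricter filter or array weights, 0 with no filter, and 0 to 1 with an array left out (0 without control replicate 3 or any day 7 array); for day 14 against day 7 they were 29 as reported and 19 to 31 with an array left out (19 without day 7 replicate 1 and 19 without day 7 replicate 2).

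The replicate number was also set as a block, though no pairing by number was seen. The block gave 0, 18 and 17 members called for day 7 against control, day 14 against control and day 14 against day 7. At day 7 it gave 280 genes of all, 1 gene of the other splicing lists and 0 ratios. Direction turned in 6 cases among members and their ratios where the value was called before or after. Values called in neither fit changed sign under at least 1 alternative for 35 of 111 member values and 58 of 231 ratios, all within 0.21 of 0 as reported. With the mean of probe sets, Hnrnpc (0.14) and Srsf10 (-0.43) turned for day 14 against control, and Sf3b4 (0.048), Srsf1 (-0.38) and Srsf10 (-0.45) for day 14 against day 7; since the mean weighs dimmer probe sets equally, it follows them where they disagree. With the offset of 32, the ratio of 1446687_at of Sf3a1 for day 14 against day 7 became 0.22; the cause was not tested. Quantile normalization or the same 75th percentile changed the split of calls as given in the report. Quantile normalization, added for the ratios after seeing the data, gave 1, 23 and 26 ratios for day 7 against control, day 14 against control and day 14 against day 7.

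Limits: 3 arrays a group, small changes that scaling can move across the threshold, and probe sets that disagree within a gene mean that a gene's level can be read only through the probe set named. Nothing here measures splicing itself or protein.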
